A study of Mus musculus with 10 samples.

Results

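The 10 genes described here encode the 5 subunits of the transcription factor NF-κB (Nfkb1, Rel, Rela, Nfkb2 and Relb), the IκB proteins IκBα, IκBβ, IκBε and IκBζ (Nfkbia, Nfkbib, Nfkbie and Nfkbiz) and the ubiquitin-editing enzyme A20 (Tnfaip3). They were taken by symbol from a count table of 22731 genes, and all 10 were among the 16344 genes with enough reads to be tested. Their RNA was measured in mouse pancreatic fibroblasts cultured with or without group 2 innate lymphoid cells (ILC2s), lymphocytes without an antigen receptor that secrete type 2 cytokines such as IL-13. There were 3 libraries of fibroblasts cultured with wild-type ILC2s (WT coculture), 3 of fibroblasts cultured with IL13KO ILC2s, and 4 of fibroblasts cultured alone (monoculture). The comparison of the cocultures with each other addresses which differences depend on IL-13 made by the ILC2s.

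The labels give the fibroblasts the genotype C57B6 in all 3 groups, so the IL13KO label belongs to the ILC2s. Age, culture time and the number of ILC2s per culture are not given in the sources used here. Before culture, live fibroblasts carrying Pdpn and Pdgfra and lacking CD45, Epcam and CD31 were sorted, and the ILC2s were taken as KLRG1+ cells of the CD45+ lineage-negative gate. For the sort that followed the coculture the design text gives a CD45+ gate, together with Pdpn and Pdgfra. The WT cocultures are called 1, 3 and 4 after the columns of the count table, and values of each group are given in the order of these numbers. No label ties a library to an animal or a separate culture, so the p-values below measure the spread between these libraries, which may be technical. In bulk RNA, fewer cells of a type and less RNA per cell cannot be told apart.

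Total counts were 18801744 to 22087459 per library in the WT cocultures, 17277432 to 17661229 in the IL13KO cocultures and 10710410 to 14366199 in the monocultures, so the monocultures were the shallower group. A count of 3 reads, the limit that a count of 0 allows, corresponded to 0.135 to 0.162 CPM (counts scaled to the library total) with WT ILC2s, 0.17 to 0.171 with IL13KO ILC2s and 0.211 to 0.277 in monoculture. Reads of Il13 were found in the WT cocultures (30, 120 and 121) and in no IL13KO coculture or monoculture. All 9 fibroblast markers had reads in each group. Reads of the CD45 gene Ptprc numbered 6, 3 and 9 in WT coculture and 0, 1 and 0 in IL13KO coculture, while each monoculture had 0. The 10 leukocyte markers summed to 100.5 to 123 CPM in the WT cocultures, 16 to 24.4 CPM in the IL13KO cocultures and 4 to 7.31 CPM in the monocultures. Most of this was Cd53, without which the sums were 8.08 to 11.6, 3.4 to 5.46 and 0.929 to 4.29 CPM in the same order of groups. All 12 ILC2 markers had reads in the WT cocultures, against 10 in the IL13KO cocultures and 8 in the monocultures. They summed to 1295 to 1548 CPM in WT coculture, mostly Il1rl1, without which the sum was 99.7 to 111 CPM. In IL13KO coculture they summed to 79.3 to 86.3 CPM and in monoculture to 67.9 to 84.4 CPM, mostly Rora. Without Rora these sums were 21.9 to 34.6 CPM in IL13KO coculture and 8.02 to 13.2 CPM in monoculture. The remainders are not like for like, since Il1rl1 was left out in WT coculture and Rora in the other groups. Rora averaged 41.7 CPM in WT coculture, 55.3 CPM in IL13KO coculture and 63.7 CPM in monoculture. Il1rl1 averaged 1299, 16.1 and 6.89 CPM in the same order of groups. Il5, an ILC2 marker, had 716 reads over all WT cocultures, 106 over the IL13KO cocultures and 0 over the monocultures. The leukocyte and ILC2 marker sums were highest in the WT cocultures, as were Nfkb1, Nfkbia and other genes below. The part of these markers' cells in these values was not tested.

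NF-κB dimers are held in the cytoplasm by IκB proteins. In the canonical pathway, receptors for TNF, IL-1 and microbial products activate the IκB kinase complex, IκBα is degraded, and dimers of RelA or c-Rel with p50, the product of Nfkb1, enter the nucleus. In the noncanonical pathway, receptors such as LTβR release the kinase NIK from a degradation complex, and IKKα drives the processing of the Nfkb2 product p100 to p52, the partner of RelB. Genes for p100, IκBα and A20 are themselves known NF-κB targets, so the pathway makes its own inhibitors. In stromal cells the canonical pathway is known for cytokine and chemokine genes, and the noncanonical pathway for the chemokines and survival factors of lymphoid tissue. RNA levels do not measure degradation, processing or nuclear entry. Here Nfkb2 and Relb were taken as the noncanonical arm and the other 8 genes as the canonical arm, a division by textbook role, since RelB and p100 also take part in canonical signalling.

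The promoter stretches of members that hold the κB consensus, the 10-base motif that NF-κB dimers recognise, are shown because members of this family are textbook examples of genes that NF-κB regulates. RefSeq promoters on GRCm38.p6 were available for 7 of the 10 genes, and 5 of the 7 (71.4%) held a match within 250 bases before a start site, on either strand. Overlapping matches were counted as 1 site. Among the 10637 tested genes with a promoter the share was 5.39%, and among all 32851 promoters it was 3.9%. Capitals mark the match, and each line reads 5′ to 3′ on the strand of the gene.
Rel, chr11:23771026-23771086, minus strand: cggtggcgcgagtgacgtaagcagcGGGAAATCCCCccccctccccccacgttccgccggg
Nfkb2, chr19:46304689-46304717, plus strand: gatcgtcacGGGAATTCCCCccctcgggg
Nfkb2, chr19:46304717-46304736, plus strand: gggccgaaaGGGGCTTTCCc
Nfkbia, chr12:55492648-55492701, minus strand: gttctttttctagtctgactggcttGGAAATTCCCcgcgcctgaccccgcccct
Nfkbie, chr17:45555569-45555628, plus strand: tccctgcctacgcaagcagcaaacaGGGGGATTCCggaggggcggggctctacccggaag
Tnfaip3, chr10:19015411-19015447, minus strand: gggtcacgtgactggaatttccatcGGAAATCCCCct
The matches are centred 87 bases before the start in Rel, 34 and 6 in Nfkb2, 24 in Nfkbia, 101 in Nfkbie and 7 in Tnfaip3. The Nfkb2 stretches also lie in an exon of a longer Nfkb2 transcript and of AC114539.1, and the Tnfaip3 stretch lies within the span of a longer Tnfaip3 transcript. Further matches before other start sites of Nfkb2 and farther from the start in Tnfaip3 are not shown. The windows of Rela and Nfkbib held no match. In WT coculture against monoculture 4 of the 5 genes with a match (all but Rel) and both genes without one were called higher. A match in these letters is a description of the sequence and not evidence of binding.

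Fibroblasts cultured with WT ILC2s had more RNA of 9 of the 10 genes than fibroblasts alone, with Rel not called. With IL13KO ILC2s 5 of the 10 were called higher (Rela, Nfkb2, Relb, Nfkbib and Nfkbie), and between the cocultures 5 of the 10 were called higher with WT ILC2s (Nfkb1, Nfkb2, Nfkbia, Nfkbib and Nfkbie). No member was called lower in any of the 3 comparisons, where 29.7%, 27.3% and 11.7% of all tested genes were. Called means a Benjamini-Hochberg adjusted p below 0.05 in edgeR's quasi-likelihood test over all tested genes. Of all tested genes, 32.8% were called higher in the WT cocultures than in the monocultures, 30.1% in the IL13KO cocultures than in the monocultures, and 11.6% in the WT than in the IL13KO cocultures. Cocultures thus differed from monocultures in a large part of the transcriptome, and the members' counts are to be read against these shares. The median log2 fold change of the 10 genes was 1.59 for WT coculture against monoculture, 0.90 for IL13KO coculture against monoculture and 0.61 for WT against IL13KO coculture, and that of all tested genes was 0.015, 0.002 and -0.004.

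**Figure D1:**
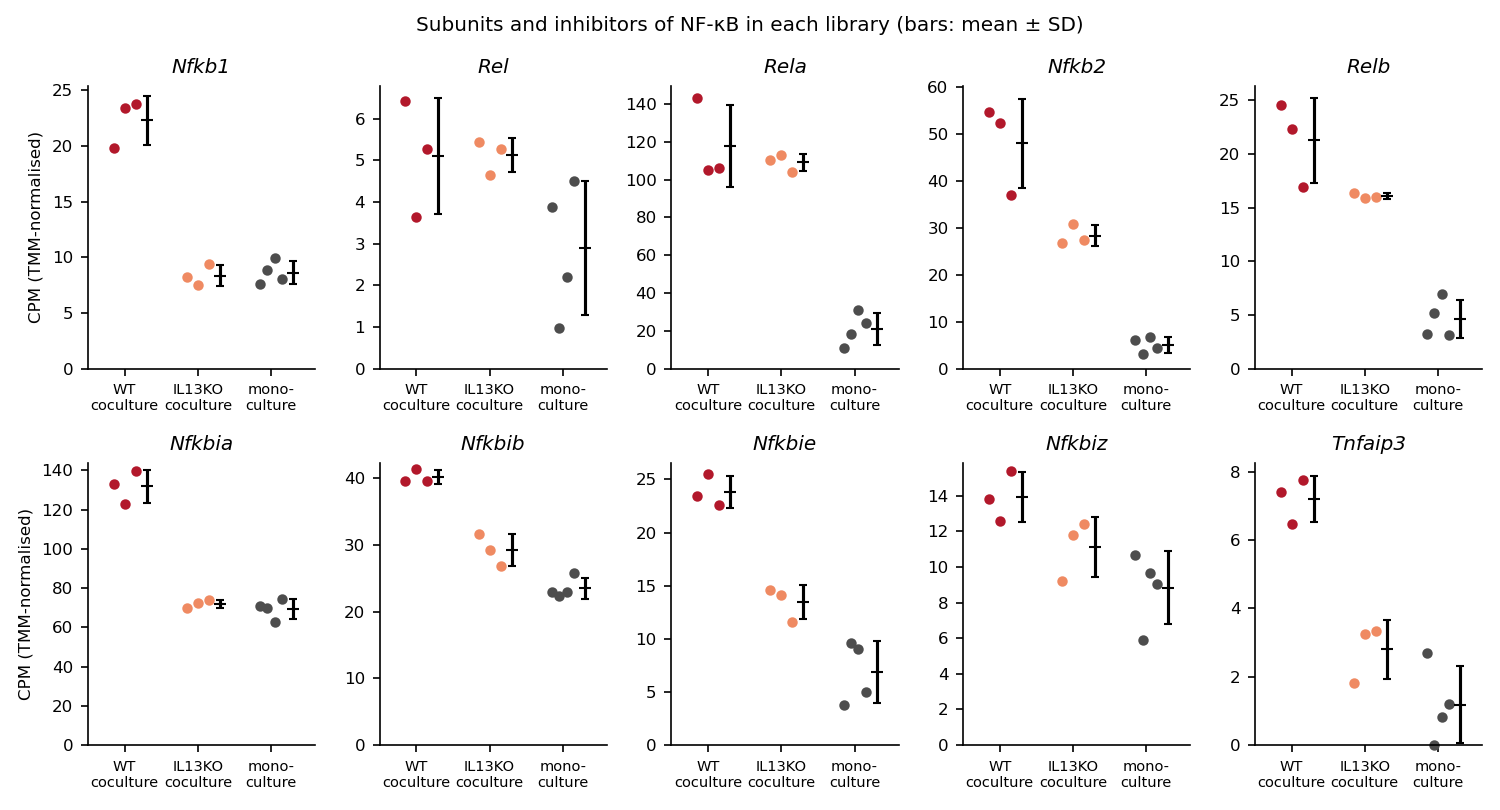
TMM-normalised CPM of the 10 genes in each library (points), with the mean ± SD of each group (bars), for WT coculture (n = 3), IL13KO coculture (n = 3) and monoculture (n = 4). Rela, Nfkb2 and Relb stand above the monocultures in both cocultures, while Nfkb1 and Nfkbia stand above the monocultures in the WT cocultures and overlap them in the IL13KO cocultures.

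Among the subunits of the canonical arm, Rela was called higher than in the monocultures in both cocultures, Nfkb1 in the WT cocultures, and Rel in neither. Rela (ENSMUSG00000024927, chromosome 19, 5637483 to 5648130, GRCm38) encodes RelA, also called p65, the subunit that carries the transactivation domain of the most common dimer. Rela had 143, 105 and 106 CPM in the WT cocultures, 110.4, 113 and 104 CPM in the IL13KO cocultures, and 11, 18.1, 31 and 24.2 CPM in the monocultures. Every coculture library lay above every monoculture, and the cocultures overlapped each other. The mean was 118 ± 21.2 CPM in the WT cocultures, 109 ± 5.08 CPM in the IL13KO cocultures and 21.1 ± 8.54 CPM in the monocultures (SD, n = 3, 3 and 4). The log2 fold change was 2.49 ± 0.25 (SE) for WT coculture against monoculture (edgeR adjusted p = 2.49e-06) and 2.38 ± 0.25 for IL13KO coculture against monoculture (edgeR adjusted p = 7.14e-06). Between the WT and the IL13KO cocultures the log2 difference was 0.11 ± 0.25, which was not called (edgeR adjusted p = 0.784).

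Nfkb1 (ENSMUSG00000028163, chromosome 3, 135584655 to 135691547) encodes p105, the precursor of p50, which can itself act as an IκB. Its level was 19.8, 23.4 and 23.8 CPM in the WT cocultures, 8.22, 7.5 and 9.36 CPM in the IL13KO cocultures, and 7.6, 8.81, 9.96 and 8.09 CPM in the monocultures. The WT cocultures stood apart from both other groups, and the IL13KO cocultures overlapped the monocultures. Nfkb1 was higher in the WT cocultures by 1.38 ± 0.15 log2 units against the monocultures (edgeR adjusted p = 6.32e-06) and by 1.42 ± 0.16 against the IL13KO cocultures (edgeR adjusted p = 5.74e-05). For IL13KO coculture against monoculture the difference was -0.04 ± 0.16 (edgeR adjusted p = 0.837).

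Rel (ENSMUSG00000020275, chromosome 11, 23736847 to 23770970) encodes c-Rel, a subunit best known from lymphocytes. Rel was low, at 6.42, 3.64 and 5.28 CPM in the WT cocultures, 5.44, 4.66 and 5.27 CPM in the IL13KO cocultures, and 3.89, 0.963, 2.21 and 4.5 CPM in the monocultures. The WT cocultures overlapped the monocultures, while the lowest IL13KO coculture lay just above the highest monoculture. The log2 fold change against the monocultures was 0.82 ± 0.38 in both cocultures (edgeR adjusted p = 0.0765 for WT and 0.0825 for IL13KO), and the fold between WT and IL13KO cocultures was 0.999 (edgeR adjusted p = 0.998). These calls changed with single libraries: without monoculture 4 Rel was called in WT coculture against monoculture (edgeR adjusted p = 0.0254) and in IL13KO coculture against monoculture (0.0283), and without monoculture 1 in WT coculture against monoculture (0.0494). Rel was also called against the monocultures by limma-voom (limma adjusted p = 0.0373 for WT and 0.0374 for IL13KO) and, with GC and length trends taken out, by edgeR (adjusted p = 0.0297 and 0.0421).

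Both genes of the noncanonical arm were higher in both cocultures. Nfkb2 (ENSMUSG00000025225, chromosome 19, 46304320 to 46312385) encodes p100, at once the precursor of p52 and an inhibitor of RelB. Nfkb2 had 54.6, 52.3 and 37.1 CPM in the WT cocultures, 26.8, 30.9 and 27.3 CPM in the IL13KO cocultures, and 6.17, 3.04, 6.82 and 4.29 CPM in the monocultures. The 3 groups did not overlap, with the WT cocultures highest and the monocultures lowest. The means were 48 ± 9.53, 28.3 ± 2.25 and 5.08 ± 1.73 CPM in that order (SD, n = 3, 3 and 4). Nfkb2 rose by 3.25 ± 0.23 log2 units in WT coculture against monoculture, a 9.55-fold difference and the largest of the 10 genes in this fit (edgeR adjusted p = 1.62e-07). Tnfaip3 was the larger with limma-voom (3.71), with GC and length trends taken out (2.54, against 2.27 for Nfkb2) and without monoculture 1 (3.4, against 3.36 for Nfkb2). In IL13KO coculture against monoculture Nfkb2 rose by 2.49 ± 0.23 (edgeR adjusted p = 3.12e-06), and in WT against IL13KO coculture by 0.76 ± 0.22 (edgeR adjusted p = 0.0256). Of the exon bases of Nfkb2, 18.1% are shared with AC114539.1 and Psd on the other strand, and reads of the genes cannot be told apart there since the strand setting of the counting is not given in the sources used here.

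Relb (ENSMUSG00000002983, chromosome 7, 19606217 to 19629438) encodes RelB, the partner of p52. Relb had 24.6, 22.3 and 16.9 CPM in the WT cocultures, 16.4, 15.9 and 16 CPM in the IL13KO cocultures, and 3.21, 5.18, 6.91 and 3.16 CPM in the monocultures. All coculture libraries lay above the monocultures, and WT coculture 4 lay only just above the IL13KO cocultures. The log2 fold change was 2.21 ± 0.24 for WT coculture against monoculture (edgeR adjusted p = 6.16e-06) and 1.81 ± 0.24 for IL13KO coculture against monoculture (edgeR adjusted p = 5.19e-05). The difference between WT and IL13KO cocultures was 0.40 ± 0.24 and was not called (edgeR adjusted p = 0.261), although a fit of those groups alone called it (0.0458).

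The IκB genes and Tnfaip3 were grouped as the 5 inhibitors, although IκBζ acts in the nucleus on selected target genes. All 5 were called higher in the WT cocultures than in the monocultures, 2 of 5 (Nfkbib and Nfkbie) in the IL13KO cocultures than in the monocultures, and 3 of 5 (Nfkbia, Nfkbib and Nfkbie) in the WT than in the IL13KO cocultures. Of all tested genes, 32.8%, 30.1% and 11.6% were called higher in these comparisons. The 2 of 5 (40%) was not far from the 30.1%. Nfkbia (ENSMUSG00000021025, chromosome 12, 55489410 to 55492647) encodes IκBα, the inhibitor that is degraded and resynthesised in each round of canonical signalling. Nfkbia had 133, 123 and 139.5 CPM in the WT cocultures, 69.9, 72.3 and 74 CPM in the IL13KO cocultures, and 70.7, 69.9, 62.5 and 74.3 CPM in the monocultures. The WT cocultures were apart from both other groups, which overlapped. Nfkbia rose by 0.93 ± 0.09 log2 units in the WT cocultures against the monocultures (edgeR adjusted p = 2.07e-06) and by 0.87 ± 0.10 against the IL13KO cocultures (edgeR adjusted p = 4.13e-05). For IL13KO coculture against monoculture the difference was 0.06 ± 0.09 (edgeR adjusted p = 0.622), and once each library's dependence on GC content and transcript length was taken out it was 0.26 and called (edgeR adjusted p = 0.0274).

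Nfkbie (ENSMUSG00000023947, chromosome 17, 45555703 to 45563169) encodes IκBε, another cytoplasmic inhibitor of RelA and c-Rel dimers. Its level was 23.4, 25.5 and 22.6 CPM in the WT cocultures, 14.6, 14.1 and 11.6 CPM in the IL13KO cocultures, and 3.72, 9.63, 9.03 and 4.99 CPM in the monocultures. As with Nfkb2, the groups did not overlap and stood in the order WT coculture, IL13KO coculture, monoculture. The log2 fold change was 1.80 ± 0.26 for WT coculture against monoculture (edgeR adjusted p = 6.13e-05), 0.97 ± 0.26 for IL13KO coculture against monoculture (edgeR adjusted p = 0.00695), and 0.83 ± 0.27 for WT against IL13KO coculture (edgeR adjusted p = 0.0427). With GC and length trends taken out, the value for IL13KO coculture against monoculture was 0.58 and not called (edgeR adjusted p = 0.0533).

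Nfkbib (ENSMUSG00000030595, chromosome 7, 28758251 to 28767512) encodes IκBβ, an inhibitor that is resynthesised more slowly than IκBα. Nfkbib had 39.6, 41.4 and 39.6 CPM in the WT cocultures, 31.7, 29.3 and 26.8 CPM in the IL13KO cocultures, and 22.9, 22.3, 23 and 25.8 CPM in the monocultures. The groups did not overlap, but the distances were small. Nfkbib rose by 0.77 ± 0.11 log2 units in WT coculture against monoculture (edgeR adjusted p = 4.3e-05), by 0.32 ± 0.11 in IL13KO coculture against monoculture (edgeR adjusted p = 0.0245) and by 0.46 ± 0.11 in WT against IL13KO coculture (edgeR adjusted p = 0.0117). Taking out the GC and length trends gave 0.33 for WT coculture against monoculture (edgeR adjusted p = 0.0292) and turned the IL13KO value against monoculture to -0.25 (edgeR adjusted p = 0.104). The 0.32 was not called without IL13KO coculture 1, IL13KO coculture 2 or monoculture 2 (edgeR adjusted p = 0.107, 0.0635 and 0.0587). Nfkbib shares 16.4% of its exon bases with Ccer2 and Sirt2 on the other strand.

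Nfkbiz (ENSMUSG00000035356, chromosome 16, 55811375 to 55838899) encodes IκBζ, a nuclear protein that acts on selected target genes rather than holding dimers in the cytoplasm. Nfkbiz had 13.8, 12.6 and 15.4 CPM in the WT cocultures, 9.24, 11.8 and 12.4 CPM in the IL13KO cocultures, and 10.7, 5.92, 9.68 and 9.07 CPM in the monocultures. The WT cocultures lay above the other groups, by a narrow margin over the highest IL13KO coculture. It rose by 0.66 ± 0.20 log2 units in WT coculture against monoculture (edgeR adjusted p = 0.0114), a call lost with GC and length trends taken out (0.41, edgeR adjusted p = 0.0925). Neither the difference of IL13KO coculture from monoculture, 0.34 ± 0.20 (edgeR adjusted p = 0.168), nor that of WT from IL13KO coculture, 0.32 ± 0.21 (edgeR adjusted p = 0.305), was called.

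Tnfaip3 (ENSMUSG00000019850, chromosome 10, 19000910 to 19015657) encodes A20, which removes and edits ubiquitin chains in the signalling complexes upstream of the IκB kinases. Tnfaip3 had 7.4, 6.46 and 7.76 CPM in the WT cocultures, 1.81, 3.24 and 3.35 CPM in the IL13KO cocultures, and 2.7, 0, 0.83 and 1.2 CPM in the monocultures. These values rest on 165, 126 and 144 reads with WT ILC2s, 32, 57 and 59 reads with IL13KO ILC2s, and 32, 0, 9 and 17 reads in the monocultures. The WT cocultures stood above all others, and monoculture 1 overlapped the IL13KO cocultures. Tnfaip3 rose by 2.62 ± 0.57 log2 units in WT coculture against monoculture (edgeR adjusted p = 0.00137). The differences of 1.26 ± 0.60 for IL13KO coculture against monoculture (edgeR adjusted p = 0.0879) and 1.36 ± 0.55 for WT against IL13KO coculture (edgeR adjusted p = 0.0959) were not called. Without monoculture 1, Tnfaip3 was called in IL13KO coculture against monoculture (2.04, edgeR adjusted p = 0.00816) and in WT against IL13KO coculture (edgeR adjusted p = 0.0319), and the value for WT coculture against monoculture was 3.4. In WT against IL13KO coculture it was also called without monoculture 2 (edgeR adjusted p = 0.0125) and in a fit of those groups alone (edgeR adjusted p = 0.000942).

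**Figure D2:**
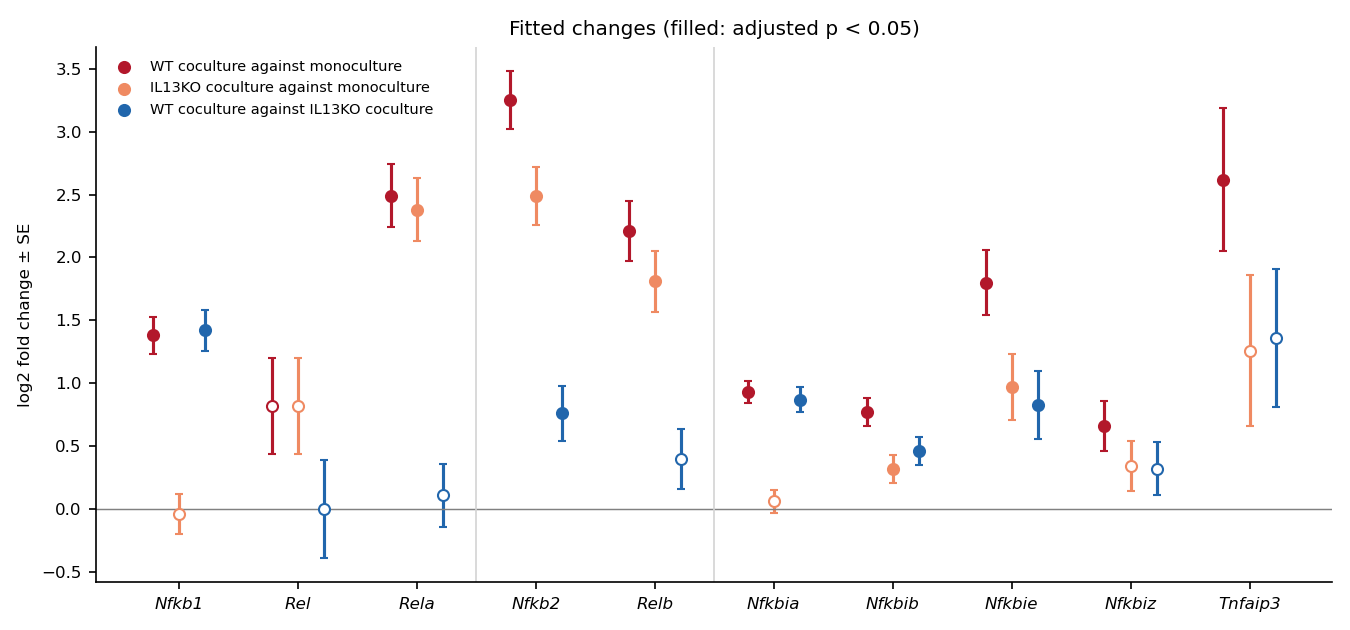
Log2 fold change ± SE of each gene in the 3 comparisons, with filled points for genes called at an edgeR adjusted p below 0.05, and grey lines between canonical subunits, noncanonical subunits and inhibitors. Nfkb2 has the largest change in this fit in WT coculture against monoculture (3.25), Nfkb1 and Nfkbia lie near 0 in IL13KO coculture against monoculture (-0.04 and 0.06), and Rela lies near 0 in WT against IL13KO coculture (0.11).

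The members fell into different patterns across the groups. For Rela, the WT and the IL13KO cocultures overlapped above the monocultures. For Nfkb1 and Nfkbia, the IL13KO cocultures and the monocultures overlapped below the WT cocultures. Nfkb2, Nfkbib and Nfkbie lay between these, with IL13KO cocultures apart from both other groups and called against both. In WT coculture against monoculture the groups did not overlap for 9 members, against 32.2% of all tested genes with every WT library higher. The number was 6 members for IL13KO coculture against monoculture (30.9% of all tested genes) and 8 for WT against IL13KO coculture (24.2%). The calls between the cocultures depended on single libraries for Nfkb2, Nfkbib and Nfkbie. Instead of 5 members, 3 were called without WT coculture 1, WT coculture 3 or IL13KO coculture 1, and 2 without IL13KO coculture 2 or IL13KO coculture 3. Nfkbie was also lost without WT coculture 4 (edgeR adjusted p = 0.0884). Nfkb1 and Nfkbia were called in every one of these fits. The summed leukocyte markers were likewise higher in the WT cocultures, at 100.5 to 123 CPM, than in the IL13KO cocultures, at 16 to 24.4 CPM. Most of this was Cd53, without which the sums were 8.08 to 11.6 CPM and 3.4 to 5.46 CPM. The part of these markers' cells in the members' differences was not tested.

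To compare levels between genes, CPM were divided by the length of the longest coding transcript in kilobases. On this scale of level per length, Nfkbia was the highest member in every group, at 83.6 ± 5.21 CPM per kb in the WT cocultures, 45.7 ± 1.31 in the IL13KO cocultures and 44 ± 3.14 in the monocultures (SD, n = 3, 3 and 4). Rela followed in the cocultures, with 43.5 ± 7.81 CPM per kb with WT ILC2s and 40.2 ± 1.87 with IL13KO ILC2s, while in the monocultures it stood at 7.75 ± 3.14 and overlapped Nfkbib at 11.4 ± 0.764. In the IL13KO cocultures the per-length level of Rela lay just below that of Nfkbia, with ranges of 38.1 to 41.8 for Rela and 44.3 to 46.9 for Nfkbia. Nfkb1, at 5.43 ± 0.533, 2.03 ± 0.227 and 2.09 ± 0.249 CPM per kb in WT coculture, IL13KO coculture and monoculture, was below Nfkb2 in both cocultures, at 12.5 ± 2.48 and 7.37 ± 0.584. In the monocultures Nfkb1 was above Nfkb2, at 1.32 ± 0.451, with no overlap of the libraries in any group.

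Lower in the order, several neighbours did not differ beyond their spread. In the WT cocultures Nfkb2, Nfkbie (9.78 ± 0.623 CPM per kb) and Relb (9.63 ± 1.8) overlapped, and below them came Nfkb1, Nfkbiz (3.38 ± 0.336), Tnfaip3 (1.63 ± 0.153) and Rel (0.685 ± 0.187) without overlap. In the IL13KO cocultures Nfkb2 overlapped Relb (7.28 ± 0.125), Nfkbiz (2.71 ± 0.41) overlapped Nfkb1, and Rel (0.687 ± 0.0552) overlapped Tnfaip3 (0.633 ± 0.193). In the monocultures Nfkbie (2.81 ± 1.2), Nfkbiz (2.15 ± 0.502), Nfkb1 and Relb (2.09 ± 0.814) overlapped, and so did the lowest members, Rel (0.387 ± 0.215) and Tnfaip3 (0.267 ± 0.256).

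Set side by side, both noncanonical genes were called higher in WT coculture against monoculture and in IL13KO coculture against monoculture, and 1 of the 2 (Nfkb2) in WT against IL13KO coculture. Of the 8 canonical genes, 7, 3 and 4 were called higher in these comparisons (87.5%, 37.5% and 50%). Of all tested genes, 32.8%, 30.1% and 11.6% were called higher in them. The 37.5% in IL13KO coculture against monoculture was thus not far from the share of all tested genes. The median log2 fold change was 2.73, 2.15 and 0.58 for the noncanonical arm and 1.15, 0.58 and 0.64 for the canonical arm, beside 0.015, 0.002 and -0.004 for all tested genes. These medians were not corrected for GC content and length. With those trends taken out, WT coculture against monoculture gave 2.27 for Nfkb2, 1.56 for Relb, 1.82 for Rela, 1.41 for Nfkb1 and 0.99 for Rel. IL13KO coculture against monoculture gave 1.35, 1.07, 1.56, -0.04 and 0.96 in the same order of genes. The arms were not tested against each other, since 1 arm has 2 genes and the canonical arm itself ranged in IL13KO coculture against monoculture between -0.04 for Nfkb1 and 2.38 for Rela.

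The ratio of the precursor genes within a library compares the arms without the library total. As a log2 ratio of CPM not scaled for length, Nfkb2 over Nfkb1 was 1.46, 1.16 and 0.64 in WT coculture, 1.69, 2.03 and 1.53 in IL13KO coculture, and -0.30, -1.50, -0.54 and -0.90 in monoculture. The cocultures did not overlap the monocultures, and the IL13KO cocultures lay above the WT cocultures, where Nfkb1 was also high. Group means of this ratio were 1.08 ± 0.41, 1.75 ± 0.25 and -0.81 ± 0.52 in the same order (SD, n = 3, 3 and 4), a difference of 1.89 between WT coculture and monoculture and of 2.56 between IL13KO coculture and monoculture. Between WT and IL13KO cocultures it was -0.67. The Relb over Rela ratio was -2.53, -2.24 and -2.65 in WT coculture, -2.74, -2.83 and -2.69 in IL13KO coculture, and -1.74, -1.78, -2.14 and -2.89 in monoculture. Both cocultures overlapped the monocultures in this ratio. The WT cocultures lay above the IL13KO cocultures by a narrow margin (-2.65 against -2.69 at the nearest). With GC and length trends taken out they overlapped, with WT coculture 4 at -2.67 and IL13KO coculture 3 at -2.63. Group means were -2.47 ± 0.21, -2.75 ± 0.07 and -2.14 ± 0.53, differences of -0.33 for WT coculture against monoculture, -0.62 for IL13KO coculture against monoculture and 0.28 for WT against IL13KO coculture.

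**Figure D3:**
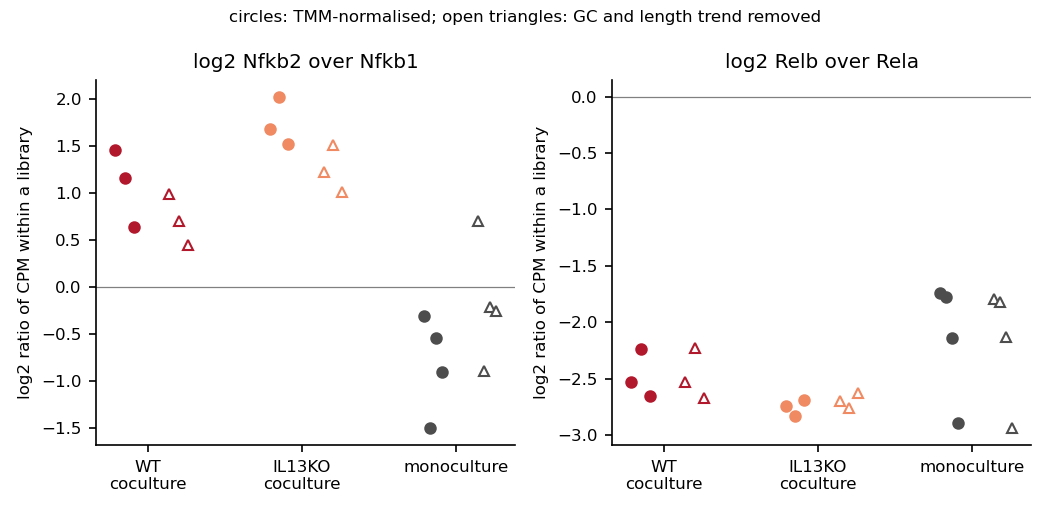
Log2 ratio of CPM within each library for Nfkb2 over Nfkb1 and for Relb over Rela, by group, with circles for TMM-normalised values and open triangles for values after removal of the dependence on GC content and length. Nfkb2 over Nfkb1 is above 0 in every coculture and below 0 in every monoculture as circles, while among the triangles monoculture 1 (0.71) lies within the WT cocultures (0.45 to 0.99).

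Nfkb2, Rela and Relb, which had large changes in both cocultures, have GC-rich transcripts. GC content was 61.1% in Relb, 59.4% in Rela and in Nfkb2 and 58.8% in Nfkbib, against 53.1% in Nfkb1, 42.5% in Rel and a median of 50.1% over 12724 tested coding genes. After removal of the dependence of counts on GC content and length, WT coculture against monoculture gave log2 fold changes of 2.27 for Nfkb2, 1.82 for Rela and 1.56 for Relb, and IL13KO coculture against monoculture gave 1.35, 1.56 and 1.07. All 6 values were called under that correction. The difference in the Nfkb2 over Nfkb1 ratio was then 0.88 for WT coculture against monoculture and 1.41 for IL13KO coculture against monoculture. The part of base composition in the uncorrected values was not tested further. The fold changes of the pathway genes that follow are likewise uncorrected. Among those that rose in the cocultures, some have GC-rich transcripts, such as Bcl3 (62.6%), Ltbr (60.4%), Map3k14 (58.7%) and Tab1 (58.2%). Others do not, such as Ccl2 (43.4%) and Cxcl13 (41.0%).

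The list counts that follow are to be read against the shares of all tested genes, which were 32.8% higher and 29.7% lower in WT coculture against monoculture, 30.1% higher and 27.3% lower in IL13KO coculture against monoculture, and 11.6% higher and 11.7% lower in WT against IL13KO coculture. Of 14 tested receptors and adaptors of the canonical pathway, 5 were called higher and 3 lower in WT coculture against monoculture, 5 higher and 1 lower in IL13KO coculture against monoculture, and 1 higher and 4 lower in WT against IL13KO coculture. Medians were 0.11, 0.20 and -0.24 (log2), and the 35.7% called higher in WT coculture against monoculture was near the 32.8% of all tested genes. Il1r1, the signalling receptor for IL-1, averaged 364 ± 23.4 CPM in the WT cocultures, 473 ± 16.5 CPM in the IL13KO cocultures and 253 ± 24.8 CPM in the monocultures. It rose by 0.53 ± 0.09 log2 units in WT coculture against monoculture (edgeR adjusted p = 0.000277) and by 0.90 ± 0.09 in IL13KO coculture against monoculture (edgeR adjusted p = 6.28e-06), and fell by 0.38 in WT against IL13KO coculture (edgeR adjusted p = 0.0148). Tlr2, a receptor for bacterial lipoproteins, fell by 0.97 in WT coculture against monoculture (edgeR adjusted p = 0.000165), while Tlr4, the receptor for lipopolysaccharide, rose by 0.66 ± 0.13 (edgeR adjusted p = 0.000597).

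Of 9 tested genes of the IκB kinase and TAK1 complexes, 4 were called higher and 4 lower in WT coculture against monoculture, 4 higher and 2 lower in IL13KO coculture against monoculture, and 0 higher and 1 lower in WT against IL13KO coculture, with medians of -0.05, 0.13 and -0.19. The share called higher in WT coculture against monoculture was 44.4%, beside 32.8% of all tested genes. The catalytic subunits rose modestly in both cocultures. Ikbkb, which encodes IKKβ, the main kinase of IκBα, rose by 0.86 ± 0.13 log2 units with WT ILC2s (edgeR adjusted p = 0.000116) and by 0.87 ± 0.13 with IL13KO ILC2s against monoculture (edgeR adjusted p = 0.000138). Chuk, which encodes IKKα, the kinase of p100, rose by 0.48 ± 0.15 with WT ILC2s (edgeR adjusted p = 0.0127) and by 0.70 ± 0.15 with IL13KO ILC2s against monoculture (edgeR adjusted p = 0.00141). The lowest WT coculture, at 29.9 CPM of Chuk, lay below the highest monoculture, at 31.8 CPM. Ikbkg, which encodes the scaffold NEMO of the canonical complex, had 54.7 ± 3.36 CPM in the WT cocultures, 76.5 ± 5.34 CPM in the IL13KO cocultures and 69.9 ± 12.4 CPM in the monocultures. It fell by 0.48 in WT against IL13KO coculture (edgeR adjusted p = 0.026) and by 0.35 in WT coculture against monoculture (edgeR adjusted p = 0.0345), where the libraries overlapped. Tab1, an activating partner of TAK1, rose by 2.22 ± 0.28 in WT coculture against monoculture (edgeR adjusted p = 1.97e-05), and Tab2, an adaptor of the same kinase, fell by 0.90 (edgeR adjusted p = 0.000177).

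On the noncanonical side, Ltbr, the lymphotoxin β receptor, averaged 102 ± 20.4 CPM in the WT cocultures, 133 ± 8.44 CPM in the IL13KO cocultures and 22.7 ± 7.77 CPM in the monocultures. Ltbr rose by 2.18 ± 0.21 log2 units in WT coculture against monoculture (edgeR adjusted p = 2.22e-06) and by 2.55 ± 0.21 in IL13KO coculture against monoculture (edgeR adjusted p = 1.54e-06). Tnfrsf1b, which encodes TNF receptor 2, rose by 0.90 ± 0.19 (edgeR adjusted p = 0.00129) and by 1.34 ± 0.19 (edgeR adjusted p = 8.31e-05) in these comparisons. These were 2 of 4 tested receptors of that arm called in both comparisons, with medians of 0.63 and 0.68. None of the 4 was called between WT and IL13KO cocultures (median -0.03), where the non-called difference of Ltbr was -0.38 ± 0.22 (edgeR adjusted p = 0.238).

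Of the 5 genes for NIK and the complex that degrades it, 4 were called higher and 1 lower in WT coculture against monoculture, 3 higher and 0 lower in IL13KO coculture against monoculture, and 1 higher and 0 lower in WT against IL13KO coculture, with medians of 1.62, 0.70 and 0.45. All tested genes called higher made up 32.8%, 30.1% and 11.6% in these comparisons. Map3k14, which encodes NIK, was scarce, with 23, 30 and 29 reads in WT coculture, 14, 7 and 32 reads in IL13KO coculture, and 4, 1, 0 and 1 in monoculture. It rose by 3.44 ± 0.72 log2 units with WT ILC2s (edgeR adjusted p = 0.00103) and by 2.99 ± 0.74 with IL13KO ILC2s against monoculture (edgeR adjusted p = 0.00401). Traf3, which brings NIK to its degradation complex, rose with it, by 2.30 ± 0.37 with WT ILC2s (edgeR adjusted p = 0.000149) and by 2.19 ± 0.38 with IL13KO ILC2s against monoculture (edgeR adjusted p = 0.000301). The list therefore holds both the kinase and its negative regulators. Birc3, a ubiquitin ligase of that complex and itself a known NF-κB target, had 37.2 ± 3.34 CPM in the WT cocultures, 19.7 ± 1.08 CPM in the IL13KO cocultures and 12.1 ± 1.31 CPM in the monocultures. It was called in all 3 comparisons, with 0.92 ± 0.14 for WT against IL13KO coculture (edgeR adjusted p = 0.000411).

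Beyond the members, 12 further inhibitors and atypical IκB genes were tested, of which 5 were called higher and 3 lower in WT coculture against monoculture, 5 higher and 2 lower in IL13KO coculture against monoculture, and 2 higher and 1 lower in WT against IL13KO coculture, with medians of 0.27, 0.37 and 0.03. The share called higher was 41.7%, 41.7% and 16.7%, not far from the 32.8%, 30.1% and 11.6% of all tested genes. Bcl3, a nuclear IκB protein that binds p50 and p52 homodimers, had 42.8 ± 11.2 CPM in the WT cocultures, 55.3 ± 16.6 CPM in the IL13KO cocultures and 5.54 ± 2.8 CPM in the monocultures. Like Rela, it rose in both cocultures against monoculture, by 2.97 ± 0.32 with WT ILC2s (edgeR adjusted p = 4.87e-06) and by 3.34 ± 0.32 with IL13KO ILC2s (edgeR adjusted p = 4.08e-06), with no call between them. Zc3h12a, which encodes the endoribonuclease Regnase-1, had 36.6 ± 1.51 CPM in the WT cocultures, 9.53 ± 1.04 CPM in the IL13KO cocultures and 1.82 ± 0.941 CPM in the monocultures. It rose by 4.29 ± 0.27 in WT coculture against monoculture (edgeR adjusted p = 7.08e-08) and by 1.94 ± 0.25 in WT against IL13KO coculture (edgeR adjusted p = 0.000165). Tnip1, which encodes ABIN-1, a partner of A20, rose by 2.12 ± 0.20 in WT coculture against monoculture (edgeR adjusted p = 1.44e-06). Rnf11, another component of the A20 complex, went the other way and fell by 1.41 in the same comparison (edgeR adjusted p = 4.59e-07), as did Otulin, which cleaves linear ubiquitin chains, by 1.36 (edgeR adjusted p = 0.00011).

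**Figure D4:**
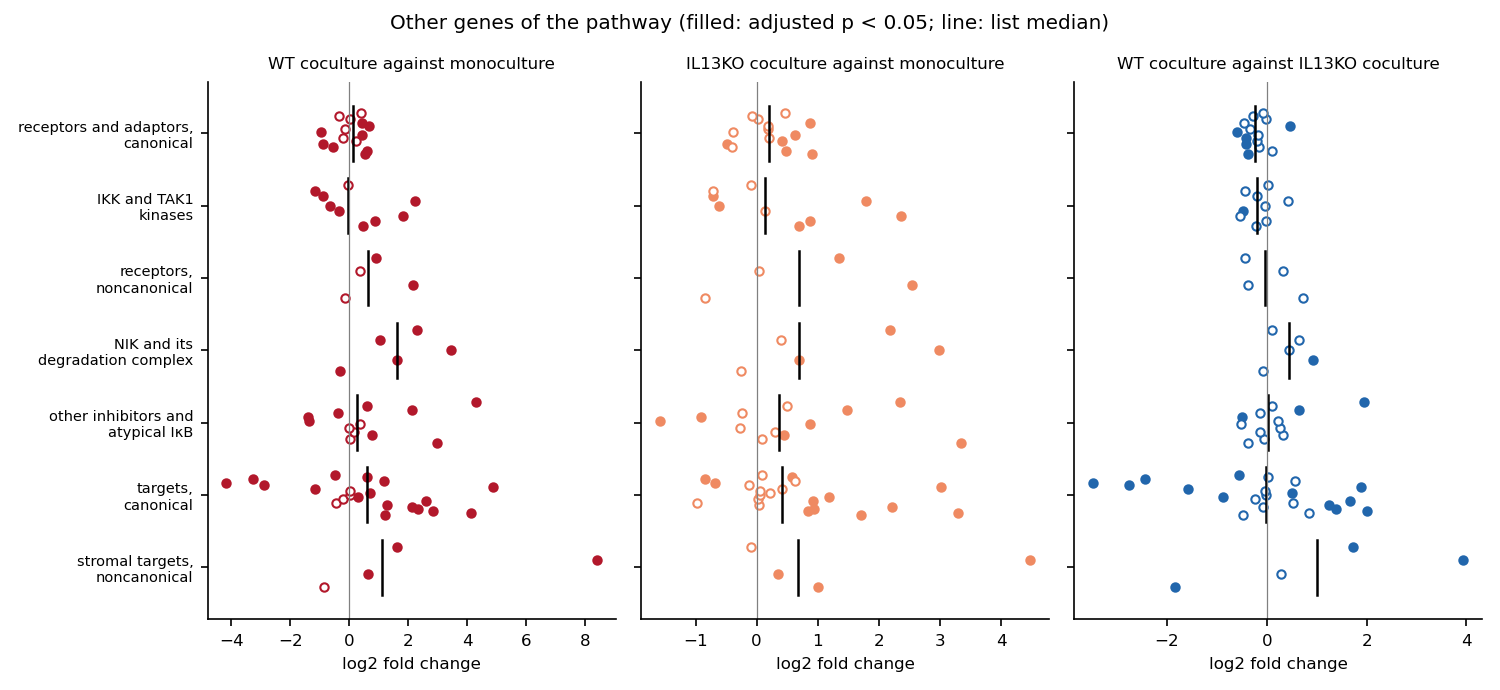
Log2 fold changes of the other tested genes of the pathway in the 3 comparisons (panels, each with its own axis), by list, with filled points for genes called at an edgeR adjusted p below 0.05 and a line at each list's median. The canonical targets spread to both sides of 0, with a median of 0.60 in WT coculture against monoculture and -0.01 in WT against IL13KO coculture.

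Downstream, 21 canonical target genes were tested. Of these, 12 were called higher and 5 lower in WT coculture against monoculture, 9 higher and 2 lower in IL13KO coculture against monoculture, and 6 in each direction in WT against IL13KO coculture, with medians of 0.60, 0.41 and -0.01. The share called higher was 57.1%, 42.9% and 28.6%, beside 32.8%, 30.1% and 11.6% of all tested genes. Ccl2, a monocyte chemokine gene, had 2610 ± 142 CPM in the WT cocultures, 653 ± 47.4 CPM in the IL13KO cocultures and 365 ± 51.8 CPM in the monocultures, with a log2 fold change of 2.0 ± 0.12 for WT against IL13KO coculture (edgeR adjusted p = 5.02e-07). Mmp3, the gene of stromelysin-1, had 116 ± 23 CPM in the WT cocultures, 1301 ± 201 CPM in the IL13KO cocultures and 2094 ± 409 CPM in the monocultures, and fell by 3.49 in WT against IL13KO coculture (edgeR adjusted p = 2.91e-07). Saa3, a serum amyloid A gene, fell by 2.44 in the same comparison (edgeR adjusted p = 4.79e-07), and Mmp13, a collagenase gene, fell by 2.77 (edgeR adjusted p = 1.54e-06). Csf1, the gene of macrophage colony-stimulating factor, stood above the monocultures in both cocultures, with 993 ± 69.5 CPM in the WT cocultures, 1050 ± 23.4 CPM in the IL13KO cocultures and 226 ± 67.9 CPM in the monocultures. Icam1, an adhesion molecule gene, stood highest with IL13KO ILC2s and was 0.88 log2 units lower in WT than in IL13KO cocultures (-0.88 ± 0.14, edgeR adjusted p = 0.000518).

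Of the noncanonical targets of stromal cells, 4 of 6 passed the filter on low counts, and all 4 are given. Cxcl13, the chemokine gene of B cell follicles, had 445 ± 109 CPM in the WT cocultures, 29 ± 3.24 CPM in the IL13KO cocultures and 1.29 ± 0.847 CPM in the monocultures. Its log2 fold change was 8.42 ± 0.31 for WT coculture against monoculture (edgeR adjusted p = 1.1e-09), 4.48 ± 0.31 for IL13KO coculture against monoculture (edgeR adjusted p = 4.77e-07) and 3.94 ± 0.26 for WT against IL13KO coculture (edgeR adjusted p = 8.32e-07). Tnfsf13b, which encodes the B cell survival factor BAFF, had 68.7 ± 1.78 CPM in the WT cocultures, 20.9 ± 1.65 CPM in the IL13KO cocultures and 22.5 ± 1.82 CPM in the monocultures. Like Nfkb1, it was called higher in the WT cocultures than in either other group, by 1.61 ± 0.11 against the monocultures (edgeR adjusted p = 9.12e-08) and by 1.72 ± 0.12 against the IL13KO cocultures (edgeR adjusted p = 1.15e-06). Cxcl12, a chemokine gene of stromal niches, was 0.64 ± 0.09 higher in WT coculture against monoculture (edgeR adjusted p = 6.67e-05), and Ccl19, a chemokine gene of T cell zones, fell by 1.85 in WT against IL13KO coculture (edgeR adjusted p = 0.00444). The list counts were 3 higher and 0 lower, 3 higher and 0 lower, and 2 higher and 1 lower in the 3 comparisons, with medians of 1.13, 0.68 and 1.0, beside 32.8%, 30.1% and 11.6% of all tested genes called higher. With GC and length trends taken out, 1 gene of the list was called higher in IL13KO coculture against monoculture.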

How the data were processed

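Low-input libraries were prepared from 5 to 15 ng RNA of re-sorted fibroblasts and read as pairs of 50 nt, per the labels' protocols. The submitters' processing notes name GRCm38.p6 and the tools STAR 2.7.7a, Salmon 1.6.0, Trimmomatic 0.39, FastQC 0.11.9, Picard and DESeq2. The tool that counted reads, its annotation and its strand setting are not given in the sources used here. The authors deposited whole-number counts per gene, which were used for all values. A deposited normalized table was not used. All 10 libraries entered.

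Gene identifiers were matched to GENCODE M21 on GRCm38 (22647 of 22731). In R 4.3.3 and edgeR 4.0.16, genes were kept by filterByExpr, normalised by TMM and fitted in 1 quasi-likelihood model of all 10 libraries with 1 coefficient per group. The 3 comparisons were adjusted by Benjamini-Hochberg over 16344 genes and called below 0.05. The SE of a log2 fold change is its size divided by the square root of its F statistic. CPM use TMM library sizes, and log2 CPM a prior count of 2. Floors of 3 counts cover counting error only. The model was tested on simulated data. Alternatives were DESeq2 1.42.0, limma-voom (limma 3.58.1), other size factors, no filter or 1 CPM in 3 libraries, only the groups compared, a replicate block, removal of each library's loess trend (span 0.4) with GC content and exon length, and leaving out each library.

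The text names all members, up to 4 genes per pathway list and comparison by smallest adjusted p, and genes chosen for their role in an arm. Otulin and, between the cocultures, Icam1 were named after their values were seen. The members and lists were chosen with earlier results of these data known. In the lists, 135 of 147 genes were in the count table.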

Additional observations from a re-analysis of the deposited data

How the results depend on the processing

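Over the alternatives that did not leave out a library, 252 of 270 member fold changes kept their direction and side of the threshold, 8 lost the call, 9 gained it and 1 reversed, that of Nfkbib in IL13KO coculture against monoculture with the GC and length trend removed (-0.25). When each library was left out in turn, 278 of 300 kept both, 16 lost the call and 6 gained it. Nfkb1 and Nfkbia kept their calls in WT against IL13KO coculture under every alternative, with largest edgeR, DESeq2 or limma adjusted p of 0.0016 and 0.00184. In WT against IL13KO coculture, 3810 genes were called, against 5806 with a fit of those groups alone, 2124 with the replicate block and 2337 to 4814 with a library left out. Members called there were 5, against 7 with a fit of those groups alone, 2 with the replicate block and 2 to 6 with a library left out, and the cause was not tested. The block used the column numbers of the count table. For 8 pairs of same-numbered libraries, deviations from the group means correlated at -0.13 to 0.03, and for pairs of different number at -0.15 to 0.14. With means of 3 or 4 libraries this cannot show whether the numbers pair the libraries. With the GC and length trend removed, the Nfkb2 over Nfkb1 difference was 0.88 for WT coculture against monoculture and 1.41 for IL13KO coculture against monoculture. Upper-quartile size factors moved the median log2 fold change of all genes to -0.106 for WT coculture against monoculture and -0.102 for IL13KO coculture against monoculture, and trend removal moved it to 0.105 and 0.117. Relative to these shifts, Nfkbib in IL13KO coculture against monoculture lost its call with upper-quartile factors (0.21, edgeR adjusted p = 0.114). Counts of list genes moved by over 1.5 times in 29 of 378 values under other alternatives and in 44 of 420 with a library left out. Depth limits Tnfaip3 and Map3k14, whose monoculture values rest on 58 and 6 reads in all.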

Other observations

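Each subunit was compared with the other genes among the 79 tested members and pathway genes. Genes of like profile over the 10 libraries were found by the root mean square difference of log2 CPM centred on each gene's mean. Nfkb1 was most like Tnfsf13b (0.23), the gene of BAFF, followed by Cxcl1 (0.28), a neutrophil chemokine gene, and Nfkbia (0.28). Cxcl1 had 132 ± 3.75 CPM in the WT cocultures, 55.5 ± 5.08 CPM in the IL13KO cocultures and 54 ± 12.1 CPM in the monocultures (SD, n = 3, 3 and 4), the same shape as Nfkb1. Rela was most like Csf1 (0.22), Ltbr (0.29) and Ikbke (0.33), and Relb was most like Csf1 (0.29), Tab1 (0.30) and Ltbr (0.38). Ikbke, which encodes the IκB kinase relative IKKε, had 13.6 ± 1.69 CPM in the WT cocultures, 19.8 ± 0.519 CPM in the IL13KO cocultures and 3.85 ± 1.86 CPM in the monocultures. Nfkb2 had no neighbour as close, with Lif (0.52), a cytokine gene of the IL-6 family, Rela (0.55) and Relb (0.59) next to it. For Rel the nearest were Nfkbiz (0.49), Chuk (0.55) and Ikbkb (0.57). These distances describe 10 libraries in 3 groups and carry no test. GC and length trends were not taken out of the log2 CPM used for them. GC content was 60.4% in Ltbr, 58.2% in Tab1, 54.6% in Ikbke and 54.4% in Csf1. In the genes nearest to Nfkb1 it was 42.9% (Tnfsf13b), 45.1% (Cxcl1) and 52.9% (Nfkbia). The part of GC content in the likeness was not tested.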
